A study of Mus musculus with 8 samples.

Results

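Sostdc1, Crym, Kank4, C1qtnf7, Prnd, Ccdc3, Fam167a and Slc30a8 are 8 genes whose signal was far lower in cells expressing W20 than in cells expressing EGFP at one stage or the other, out of 18842 genes with a symbol on the array and 13617 tested. They were selected on that very difference, so the W20 against EGFP values of the 8 genes are given below as a description, without a test. The selection names no numerical threshold. The data come from N31, a line of neural progenitor cells (NPC) made from mouse embryonic stem cells, with 2 Agilent Cy3 arrays in each of 4 groups. W20 NPC and EGFP NPC were grown in medium with EGF and bFGF at 10 ng/ml each. W20 72 h and EGFP 72 h cells were taken 72 h after reprogramming was started, with Dox at 40 ng/ml throughout, 48 h of it in NPC medium and the last 24 h with 10% KSR and LIF at 1000 U/ml. The labels name 1 cell line, no untransduced cells, and no separate cultures behind the replicates, so the p-values reflect the spread between arrays alone, which could be technical.

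The proteins of these genes do different things. Sostdc1 is a secreted antagonist that binds bone morphogenetic proteins (BMPs) and also modulates Wnt signalling through LRP co-receptors. C1qtnf7 belongs to the secreted C1q and TNF related proteins, and Ccdc3 encodes a secreted protein described in fat and endothelial cells. Prnd encodes Doppel, a GPI-anchored surface relative of the prion protein, and Slc30a8 encodes ZnT8, which loads zinc into the insulin granules of pancreatic beta cells. Crym (mu-crystallin, which binds thyroid hormone) and Kank4 (a KANK scaffold protein of the cell cortex) are intracellular, and Fam167a is not known here as a secreted or surface protein. A name that calls all 8 genes secreted or surface genes is therefore too wide. Signals of RNA say nothing about where a protein lies.

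Since the 8 genes had similar array profiles in pairs, the sequence around their starts is shown for comparison. RefSeq windows of assembly GRCm38.p6, running from 250 bases before to 50 after the start, matched 4 of the 8 genes: Kank4 (chr4:98817488-98817787, minus strand), C1qtnf7 (chr5:43515319-43515618, plus strand), Prnd (chr2:131950611-131950910, plus strand) and Ccdc3 (chr2:5137526-5137825, plus strand). Prnd has a second, overlapping window (chr2:131950787-131951086, plus strand), which is not printed. Capitals mark every match, on either strand, to 1 of 6 motifs: the TATA box TATAAA, the CCAAT box CCAAT, the AP-1 site TGANTCA, the E-box CANNTG, the SMAD box CAGAC and the nuclear receptor site AGGTCA.
Kank4: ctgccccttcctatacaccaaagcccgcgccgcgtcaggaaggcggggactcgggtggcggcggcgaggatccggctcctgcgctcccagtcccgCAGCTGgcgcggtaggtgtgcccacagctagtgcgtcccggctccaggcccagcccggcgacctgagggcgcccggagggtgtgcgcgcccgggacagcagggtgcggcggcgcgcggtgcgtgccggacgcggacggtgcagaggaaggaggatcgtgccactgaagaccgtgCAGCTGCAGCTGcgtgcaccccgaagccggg
C1qtnf7: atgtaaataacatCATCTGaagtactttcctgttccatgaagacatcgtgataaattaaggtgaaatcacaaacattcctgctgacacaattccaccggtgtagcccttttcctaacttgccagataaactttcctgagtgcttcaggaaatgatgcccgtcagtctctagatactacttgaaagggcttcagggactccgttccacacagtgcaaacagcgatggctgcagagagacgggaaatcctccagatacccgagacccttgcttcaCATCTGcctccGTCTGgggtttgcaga
Prnd: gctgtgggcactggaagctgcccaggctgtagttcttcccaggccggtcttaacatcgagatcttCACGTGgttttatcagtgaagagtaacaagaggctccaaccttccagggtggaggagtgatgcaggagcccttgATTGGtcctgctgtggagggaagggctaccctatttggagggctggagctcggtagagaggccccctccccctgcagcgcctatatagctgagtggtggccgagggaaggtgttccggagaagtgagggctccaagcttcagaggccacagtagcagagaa
Ccdc3: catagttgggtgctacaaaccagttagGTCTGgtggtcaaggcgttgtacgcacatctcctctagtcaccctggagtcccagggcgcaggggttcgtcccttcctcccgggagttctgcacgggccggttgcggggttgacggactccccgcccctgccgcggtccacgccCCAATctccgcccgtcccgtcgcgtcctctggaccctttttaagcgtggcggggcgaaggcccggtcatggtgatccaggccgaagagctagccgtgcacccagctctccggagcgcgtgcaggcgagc

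The windows had little in common. Kank4 and C1qtnf7, whose array profiles were the most alike of all pairs among the 8 genes, differed in base composition: GC made up 74.0% of the Kank4 window, with 38 CpG dinucleotides, and 46.7% of the C1qtnf7 window, with 8 CpG. Prnd had 57.7% GC and 7 CpG in the window shown and 60.0% GC and 8 CpG in its second window, and Ccdc3 had 66.3% GC and 28 CpG. Over 32851 windows of the same length the median was 52.7% GC (quartiles 45.7% and 61.7%) and 7 CpG (quartiles 3 and 20). An E-box, held by 72.3% of all windows, lay in the Kank4 window 3 times, in that of C1qtnf7 2 times and in that of Prnd once. The CCAAT box (37.4% of all windows) was found once each in Prnd and Ccdc3. The SMAD box, the core to which BMP and TGF-beta effectors bind, was found in 49.6% of all windows, and once each in C1qtnf7 and Ccdc3 and in the second window of Prnd. The letters TATAAA (13.6% of windows), TGANTCA (7.81%) and AGGTCA (16.3%) were in none of the 4 windows shown, nor in the second of Prnd. No 2 of the motifs overlapped in the windows shown.

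A level below is the log2 of the processed signal minus the log2 of that array's 75th percentile, so that 0 is the 75th percentile of the array and a step of 1 is a doubling. Levels of different probes are not comparable with each other. A probe is called dim on an array where the scanner software did not find it well above background. The lowest level of any probe well above background was between -5.36 and -5.50 on the W20 NPC arrays, -5.63 and -5.64 on the EGFP NPC arrays, between -5.04 and -5.37 on the W20 72 h arrays, and between -5.67 and -5.84 on the EGFP 72 h arrays. Where a gene was dim on both arrays of a group, its fold is a lower bound (at least N-fold), from the mean of the bright group to the mean of, per array, the higher of that lowest level and the probe's own. A fold is left out where both groups were dim. The 8 genes were read by 9 probes, and each gene's brightest probe passed the filter, which asked for 1 group with neither array dim. Since a gene dim in W20 cells could pass only through the EGFP arrays, the number that passed says nothing about the genes.

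Replicate arrays had correlations of 0.999 to 0.9992 over the 12155 genes above background on all 8 arrays, with a median SD of 0.0302 to 0.0408 log2 units. Between 57.0% and 62.4% of spots were well above background, and none was saturated. The NPC arrays all lay on 1 slide and the 72 h arrays on another, so stage and slide cannot be told apart. EGFP arrays took positions 1 and 2 and W20 arrays positions 3 and 4 of both slides, so position and construct cannot be told apart. Among neural progenitor markers, Nes, Sox2, Pax6, Slc1a3, Vim, Notch1 and Cdh2 were well above background on all 8 arrays, Fabp7 on 5, Hes5 on 2 and Olig2 on none. In bulk samples such as these, fewer cells of a type and less RNA per cell cannot be told apart.

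The 8 genes fell into 4 pairs by array profile. Sostdc1 and Crym were dim in W20 NPC and well above background in the other 3 groups. Kank4 and C1qtnf7 were above background on both arrays in EGFP NPC alone. Ccdc3 and Fam167a were above background everywhere but in W20 72 h cells, and Prnd and Slc30a8 were brightest in EGFP 72 h cells. The root mean square difference between the centred profiles of 8 arrays was 0.28 log2 units for Kank4 with C1qtnf7, 0.45 for Ccdc3 with Fam167a, 0.67 for Sostdc1 with Crym and 0.98 for Prnd with Slc30a8. It reached 3.09 for Crym with Ccdc3, the farthest pair. The plot of levels on each array shows the 4 shapes.

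**Figure D1:**
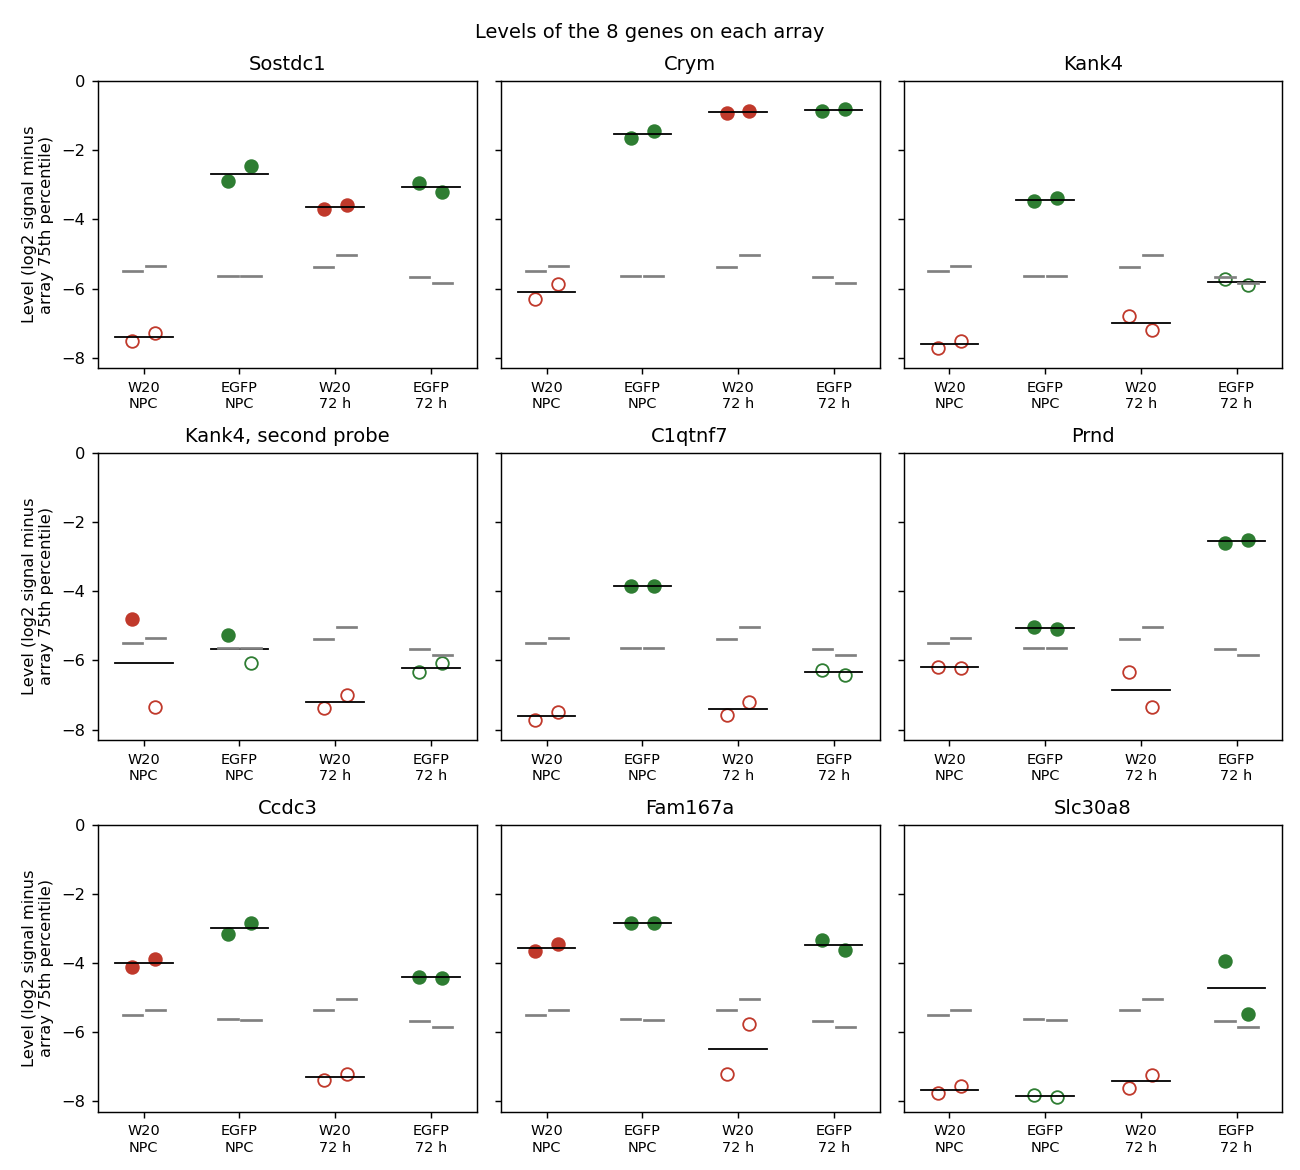
Level of each probe of the 8 genes on every array (log2 signal minus the array's 75th percentile), with W20 in red and EGFP in green. Filled points were well above background and open points were not, black lines are group means of 2 arrays, and grey ticks are the lowest level well above background on that array. Sostdc1 and Crym are open in W20 NPC only, and Ccdc3 and Fam167a in W20 72 h only.

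Sostdc1 was lost from view in W20 NPC and near its EGFP level at 72 h. Its levels were -7.52 and -7.28 in W20 NPC, both dim, against -2.90 and -2.45 in EGFP NPC. That is at least 6.74-fold lower with W20. At 72 h the levels were -3.71 and -3.59 in W20 cells, against -2.94 and -3.20 in EGFP cells, or 1.5-fold lower with W20 (difference -0.58, SE 0.174). All 4 of these arrays were well above background.

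Over the 72 h the difference of Sostdc1 had opposite signs in the 2 kinds of cells. With W20 it was at least 3.44-fold higher in 72 h cells than in NPC (2 arrays each). No test is given, since its low W20 NPC arrays were used to choose it. With EGFP the difference of 72 h minus NPC was -0.39 ± 0.174 (SE), which did not pass (limma, adjusted p = 0.0912). That value stayed short of the threshold in 15 of 17 alternatives, and passed with normexp background correction (-0.35, limma, adjusted p = 0.03). It hung on single arrays: -0.62 without EGFP NPC replicate 1, -0.16 without EGFP NPC replicate 2 and -0.26 without EGFP 72 h replicate 2. The 72 h against NPC comparisons were not used to choose the genes, but they share arrays with those that were. The EGFP p-values of Sostdc1, Crym, Ccdc3 and Fam167a are therefore not independent of that choice. Where the group that set a gene apart also makes the difference over the 72 h, no test is given. Over all genes, 37.5% rose and 37.2% fell with W20 over this interval, and 36.1% rose and 33.8% fell with EGFP. Calls among the 8 genes are to be read against these shares.

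Crym had the same shape, and at 72 h the 2 kinds of cells were close to each other. Its levels were -6.29 and -5.88 in W20 NPC, both dim, against -1.65 and -1.44 in EGFP NPC, at least 14.8-fold lower with W20. At 72 h they were -0.91 and -0.88 in W20 cells, against -0.88 and -0.82 in EGFP cells. The difference of -0.05 (SE 0.139, 1.03-fold) was within its SE. With W20, Crym was at least 23.2-fold higher at 72 h than in NPC, with no test for the same reason as Sostdc1. With EGFP it rose 1.61-fold (difference 0.69 ± 0.139 SE, limma, adjusted p = 0.00547). The EGFP arrays entered the choice of Crym too, so this p-value is not independent of it.

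Crym holds thyroid hormone inside cells, and 13 of 20 genes listed for handling of and response to that hormone were tested. In W20 NPC 5 of the 13 were higher and 3 lower than in EGFP NPC, against 31.8% of all genes called higher and 23.6% called lower. At 72 h 3 were higher and 1 lower with W20, against 28.4% and 24.4% of all genes. These shares depend on the scaling: of the genes called in NPC, 57.4% were higher, against 47.5% with the 75th percentile taken over probes above background on all arrays, 49.5% with quantile scaling and 63.5% with median scaling. Klf9, a transcription factor induced by thyroid hormone, was higher with W20 by 1.33 ± 0.0717 in NPC (adjusted p = 1.20e-04) and by 0.52 ± 0.0717 at 72 h (adjusted p = 0.00216). The receptor gene Thra was lower in W20 NPC (-0.40 ± 0.072, adjusted p = 0.00533), and so was Rxra, its dimer partner (-0.44 ± 0.0376, adjusted p = 3.84e-04). Rxra is read by 2 probes, of which 1 was called lower in NPC. Slc7a5, an amino acid carrier that also takes up thyroid hormone, was higher with W20 at 72 h (1.20 ± 0.0544, adjusted p = 6.98e-05). The list's median difference was -0.03 in NPC and 0.14 at 72 h, beside 0.04 and 0.03 over all genes.

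Sostdc1 acts on BMP and Wnt signals, and the other secreted BMP antagonists were called in both directions. Of 12 tested, 2 were higher and 5 lower in W20 NPC, and 3 were higher and 4 lower in W20 72 h cells, each against EGFP, beside 31.8% and 23.6% of all genes in NPC and 28.4% and 24.4% at 72 h. Fstl1, a secreted follistatin-like protein, was lower in W20 NPC (-1.29 ± 0.0439, adjusted p = 5.41e-05). Bmper, which binds BMPs outside the cell, was higher there (0.59 ± 0.0477, adjusted p = 3.39e-04) and at 72 h (0.24 ± 0.0477, adjusted p = 0.00777), where 1 of its 2 probes was called. At 72 h the antagonist Grem1 was dim with W20 and at least 2.15-fold lower (adjusted p = 5.72e-05), and Nbl1 was lower by -0.65 ± 0.0666 (adjusted p = 7.68e-04). Fst, which binds activin and BMPs, was higher at 72 h by 0.40 ± 0.054 (adjusted p = 0.00212). Grem1 and Fst went the other way in NPC. There Grem1 was higher with W20 (0.31 ± 0.075, limma, adjusted p = 0.0149), and the probe of Fst was called lower.

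Among BMP ligands, receptors and targets, lower genes outnumbered higher ones. Of 18 tested, 10 were lower and 3 higher in W20 NPC, where 23.6% of all genes were lower. In W20 72 h cells 9 were lower and 2 higher, where 24.4% of all genes were lower. The list's medians were -0.37 and -0.31, beside 0.04 and 0.03 over all genes. The ligand gene Bmp4 was lower with W20 at both stages, by -1.33 ± 0.0528 in NPC (adjusted p = 6.48e-05) and by -1.35 ± 0.0528 at 72 h (adjusted p = 4.77e-05). Id3, a direct target of BMP signalling, was lower in NPC (-0.96 ± 0.0427, adjusted p = 8.10e-05), and Smad6, an inhibitory SMAD induced by BMPs, was lower at 72 h (-1.39 ± 0.0471, adjusted p = 3.93e-05). Counts of higher genes in this list were less steady than those of lower genes: across the alternative settings 0 to 3 were higher in NPC and 8 to 12 were lower.

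Secreted Wnt antagonists and co-receptors were lower in W20 NPC in 8 of 11 tested genes, with none higher. At 72 h 5 were lower and 1 was higher with W20. Of all genes, 23.6% were lower and 31.8% higher in NPC, and 24.4% and 28.4% at 72 h. The medians were -0.33 in NPC and -0.17 at 72 h. Frzb, a secreted frizzled-related protein, was dim in W20 NPC and at least 1.6-fold lower than in EGFP NPC (adjusted p = 1.39e-04). Dkk1, which blocks LRP co-receptors, was lower in W20 NPC (-2.10 ± 0.183, adjusted p = 4.13e-04). It was well above background on only 1 of the 2 W20 NPC arrays, so the size of that difference is uncertain. Dkk3 was lower in W20 72 h cells (-1.33 ± 0.0635, adjusted p = 8.19e-05). The counts depended on the setting, with 5 to 9 genes lower in NPC and 2 to 5 lower at 72 h across the alternatives.

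Of 8 direct Wnt targets tested, 2 were higher and 3 lower in W20 NPC, where 31.8% and 23.6% of all genes were. In W20 72 h cells 4 were higher and 2 lower, where 28.4% and 24.4% of all genes were, and the medians were -0.06 and -0.03. Nkd1, a feedback inhibitor of the pathway, was lower with W20 in NPC (-1.44 ± 0.141, adjusted p = 5.90e-04) and at 72 h (-1.47 ± 0.141, adjusted p = 6.09e-04). At 72 h 1 of its 2 probes was called lower. Lef1, a transcription factor of the pathway, was higher at 72 h (0.82 ± 0.0517, adjusted p = 1.62e-04), as was Nkd2 (1.05 ± 0.178, adjusted p = 0.00453), while Tcf7 was lower (-0.33 ± 0.0426, adjusted p = 0.00175). In NPC Nkd2 was dim with W20 and at least 1.25-fold lower (limma, adjusted p = 0.0142), with 1 of its 2 probes called. Znrf3, a ubiquitin ligase that removes Wnt receptors, was higher in W20 NPC (0.42 ± 0.045, adjusted p = 7.69e-04).

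Kank4 was read as a signal in EGFP NPC and was dim elsewhere. Its brighter probe gave -7.72 and -7.51 in W20 NPC, both dim, against -3.48 and -3.39 in EGFP NPC, at least 3.99-fold lower with W20. At 72 h it was dim on all arrays, at -6.80 and -7.20 in W20 cells and at -5.73 and -5.89 in EGFP cells. With EGFP it was at least 5-fold lower at 72 h than in NPC, a description with no test, since the gene passed the filter through EGFP NPC alone, and with W20 it was dim at both stages, which leaves no fold.

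The second Kank4 probe did not show this. It gave -4.79 and -7.34 in W20 NPC, with the first array above background and the other dim, against -5.28 and -6.07 in EGFP NPC, where again 1 array was dim. The groups overlapped. At 72 h it was dim on all 4 arrays, between -7.01 and -7.38 in W20 cells and between -6.09 and -6.34 in EGFP cells. What is said of Kank4 therefore rests on 1 probe. The mean of both probes gave -2.28 in place of -4.18 for W20 minus EGFP in NPC, and -1.46 in place of -2.38 for 72 h minus NPC with EGFP. For 72 h against NPC with EGFP the bound of the second probe was 1.06-fold.

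C1qtnf7 followed Kank4 closely. Its levels were -7.73 and -7.50 in W20 NPC, both dim, against -3.86 and -3.84 in EGFP NPC, at least 2.99-fold lower with W20. At 72 h all 4 arrays were dim, at -7.58 and -7.21 in W20 cells and at -6.27 and -6.42 in EGFP cells. With EGFP, C1qtnf7 was at least 3.75-fold lower at 72 h than in NPC, again with no test, since EGFP NPC alone took it past the filter. With W20 it was dim at both stages.

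The KANK family and its partners at the cell cortex, which link talin adhesions to microtubule ends, were called about as often as genes at large. Of 12 tested, 4 were higher and 2 lower in W20 NPC (31.8% and 23.6% of all genes), and 4 were higher and 4 lower in W20 72 h cells (28.4% and 24.4%), with medians of -0.03 and 0.03. Kank1 was lower with W20 in NPC (-0.47 ± 0.0505, adjusted p = 7.68e-04) and higher with W20 at 72 h (0.50 ± 0.0505, adjusted p = 7.06e-04), with 2 of its 3 probes called lower in NPC and 2 called higher at 72 h. Kank2 was lower in NPC by -0.21 ± 0.0417 (adjusted p = 0.00751), with 1 of its 2 probes called. The liprin gene Ppfibp1 was higher in W20 NPC (0.33 ± 0.0436, adjusted p = 0.00161). At 72 h the membrane-anchoring partners Phldb1 (-0.45 ± 0.0326, adjusted p = 2.56e-04) and Phldb2 (-0.43 ± 0.0579, adjusted p = 0.00199) were lower. The probe of Phldb1 was called higher with W20 in NPC.

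Relatives of C1qtnf7 in the C1q and TNF related family gave 15 tested genes. Of these, 7 were lower and 2 higher in W20 NPC (23.6% and 31.8% of all genes), and 8 were lower and 2 higher in W20 72 h cells (24.4% and 28.4%), with medians of -0.27 and -0.39. Col8a2, a short-chain collagen with a C1q domain, was lower with W20 in NPC (-2.76 ± 0.136, adjusted p = 9.78e-05) and at 72 h (-2.08 ± 0.136, adjusted p = 1.81e-04). C1qtnf4 was lower in NPC (-1.09 ± 0.036, adjusted p = 5.41e-05). The synaptic protein gene C1ql3 was higher with W20, by 1.46 ± 0.0653 in NPC (adjusted p = 8.19e-05) and by 0.48 ± 0.0653 at 72 h (adjusted p = 0.0021). Emilin2, an elastic fibre glycoprotein, was higher in NPC (0.31 ± 0.0347, adjusted p = 8.95e-04) and at 72 h (0.79 ± 0.0347, adjusted p = 6.28e-05).

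Prnd was a gene of EGFP cells at 72 h. Its levels were -6.35 and -7.34 in W20 72 h cells, both dim, against -2.60 and -2.52 in EGFP 72 h cells, at least 6.27-fold lower with W20. Its NPC levels were -6.18 and -6.23 with W20, both dim, and -5.03 and -5.09 with EGFP, at least 1.29-fold lower. With EGFP, Prnd was 5.67-fold higher at 72 h than in NPC (difference 2.50 ± 0.295 SE). No test is given, since its bright EGFP 72 h arrays were used to choose it. With W20 it was dim at both stages. The EGFP NPC levels lay close to the lowest level above background, which leaves little room for a larger bound.

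Prnp, the prion protein gene and the neighbour of Prnd on chromosome 2, was read well above background throughout. It was lower with W20 at 72 h (-0.41 ± 0.0372, adjusted p = 5.27e-04) and gave -0.09 ± 0.0372 in NPC (adjusted p = 0.0899). The list of prion family and GPI-anchored surface proteins held 28 tested genes. Of these, 15 were lower and 5 higher in W20 NPC (23.6% and 31.8% of all genes), and 16 were lower and 6 higher in W20 72 h cells (24.4% and 28.4%), with medians of -0.26 and -0.22. The counts depended on the setting: 9 to 17 were lower in NPC and 10 to 17 at 72 h across the alternatives. The heparan sulphate proteoglycan gene Gpc4 was lower in NPC (-1.43 ± 0.0639, adjusted p = 8.19e-05), and at 72 h Gpc6 was dim with W20 and at least 1.35-fold lower (adjusted p = 9.66e-04). The probe of Gpc4 was called higher with W20 at 72 h. Thy1, a surface protein of neurons and fibroblasts, was lower at 72 h (-1.83 ± 0.0327, adjusted p = 2.12e-05), with 1 of its 2 probes called.

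Other GPI-anchored genes were higher with W20. Cd24a, a small mucin-like surface protein of neural and epithelial progenitors, was higher by 1.03 ± 0.0558 in NPC (adjusted p = 1.22e-04) and by 1.17 ± 0.0558 at 72 h (adjusted p = 8.02e-05). Nt5e, an enzyme that makes adenosine outside the cell, was higher in NPC (1.02 ± 0.0322, adjusted p = 5.41e-05), and Alpl, alkaline phosphatase, was higher at 72 h (0.89 ± 0.124, adjusted p = 0.00225).

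Slc30a8 was above background in EGFP 72 h cells alone, and its 2 arrays there were far apart. Its levels were -7.60 and -7.23 in W20 72 h cells, both dim, against -3.95 and -5.47 in EGFP 72 h cells, at least 1.41-fold lower with W20. The bound rests on the first EGFP array: the level of -5.47 on the other lies under the lowest levels above background of the W20 72 h arrays (-5.37 and -5.04), so without replicate 1 no bound is left. The fitted difference was -1.94 without EGFP 72 h replicate 1 and -3.47 without replicate 2. Over the EGFP arrays, -5.47 is little above the lowest levels of -5.63 and -5.64 in EGFP NPC, so the bound on 72 h against NPC rests on replicate 1 too. In NPC all arrays were dim, at -7.75 and -7.57 with W20 and at -7.83 and -7.87 with EGFP, and values under background have no order. With EGFP, Slc30a8 was at least 1.9-fold higher at 72 h than in NPC, given with no test because EGFP 72 h alone took it past the filter, and the fitted difference was 0.35 with normexp background correction in place of 3.14.

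Markers of the endocrine pancreas, where Slc30a8 is best known, were read in part. Of 9 endocrine pancreas markers on the array, Ins1, Gcg, Sst, Pdx1 and Pcsk1 were dim on all 8 arrays. Ins2 and Nkx6-1 were well above background on all 8, Chga on 6 and Slc2a2 on 4. The sum of the linear signals of the 9, in units of the array's 75th percentile, was 0.555 to 0.588 in W20 72 h cells and 0.332 to 0.351 in EGFP 72 h cells. The part of such cells in the result for Slc30a8 was not tested.

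Zinc transporters and metallothioneins were called at about the rate of all genes. Of 23 tested, 6 were higher and 5 lower in W20 NPC (31.8% and 23.6% of all genes), and 7 were higher and 5 lower in W20 72 h cells (28.4% and 24.4%), with medians of -0.01 and 0.05. The uptake transporter gene Slc39a4 was lower with W20 in NPC (-0.80 ± 0.0473, adjusted p = 1.47e-04) and at 72 h (-0.77 ± 0.0473, adjusted p = 1.54e-04). The exporter gene Slc30a1 was higher in W20 NPC (0.71 ± 0.0772, adjusted p = 8.43e-04). Slc39a14 (0.32 ± 0.0566, adjusted p = 0.00501) was higher and Slc39a3 (-0.32 ± 0.0555, adjusted p = 0.0044) lower in W20 NPC. Slc39a10 was higher with W20 at 72 h (0.43 ± 0.0565, adjusted p = 0.00185), but its probe was called lower in NPC. Of the 2 Slc39a14 probes, 1 was called in NPC. Small differences of this kind made the counts depend on the setting: 2 to 7 of the genes were higher at 72 h across the alternatives, 2 without EGFP 72 h replicate 2 and 4 without W20 72 h replicate 1.

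Ccdc3 was lower with W20 at both stages. Its levels were -7.39 and -7.21 in W20 72 h cells, both dim, against -4.40 and -4.42 in EGFP 72 h cells, at least 1.74-fold lower with W20. In W20 NPC they were -4.13 and -3.89, against -3.16 and -2.83 in EGFP NPC, or 2.02-fold lower (difference -1.02, SE 0.133). All 4 NPC arrays were well above background. Ccdc3 was lower at 72 h than in NPC in both kinds of cells. With W20 it was at least 2.29-fold lower, with no test, since its dim W20 72 h arrays were used to choose it. With EGFP it fell 2.67-fold (difference -1.42 ± 0.133 SE, limma, adjusted p = 2.02e-04). The EGFP arrays also entered the W20 comparisons used to choose Ccdc3, so that p-value is not independent of the choice. The W20 value is a bound and the EGFP value a measured fold, so they give no order.

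Fam167a, like Ccdc3, had its lowest levels in W20 72 h cells, with more spread. Its levels were -7.21 and -5.76 in W20 72 h cells, both dim, against -3.33 and -3.63 in EGFP 72 h cells, at least 3.3-fold lower with W20. In W20 NPC they were -3.66 and -3.45, against -2.84 on both EGFP NPC arrays, or 1.64-fold lower (difference -0.71, SE 0.442). With W20, Fam167a was at least 3.14-fold lower at 72 h than in NPC, with no test for the same reason as Ccdc3. With EGFP the difference of 72 h minus NPC was -0.64 ± 0.442 (SE) and did not pass (limma, adjusted p = 0.24). The dim W20 72 h arrays, which enter the shared estimate of spread, were far apart, and the EGFP value passed without either of them (adjusted p = 0.00773 in both cases).

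The plot of W20 against EGFP at both stages sets the 8 genes among all genes. In NPC, 440 of 13617 genes (3.23%) were at least 2-fold lower with W20 by the fitted difference, and at 72 h 369 (2.71%) were. Both W20 arrays lay under both EGFP arrays for 7 of the 8 genes in NPC, all but Slc30a8, where the share of all genes was 34.9%. At 72 h they did so for 8 of 8, beside 34.8% of all genes, although all 4 arrays were dim for Kank4 and C1qtnf7. These counts follow from how the genes were chosen and nothing is read from them.

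**Figure D2:**
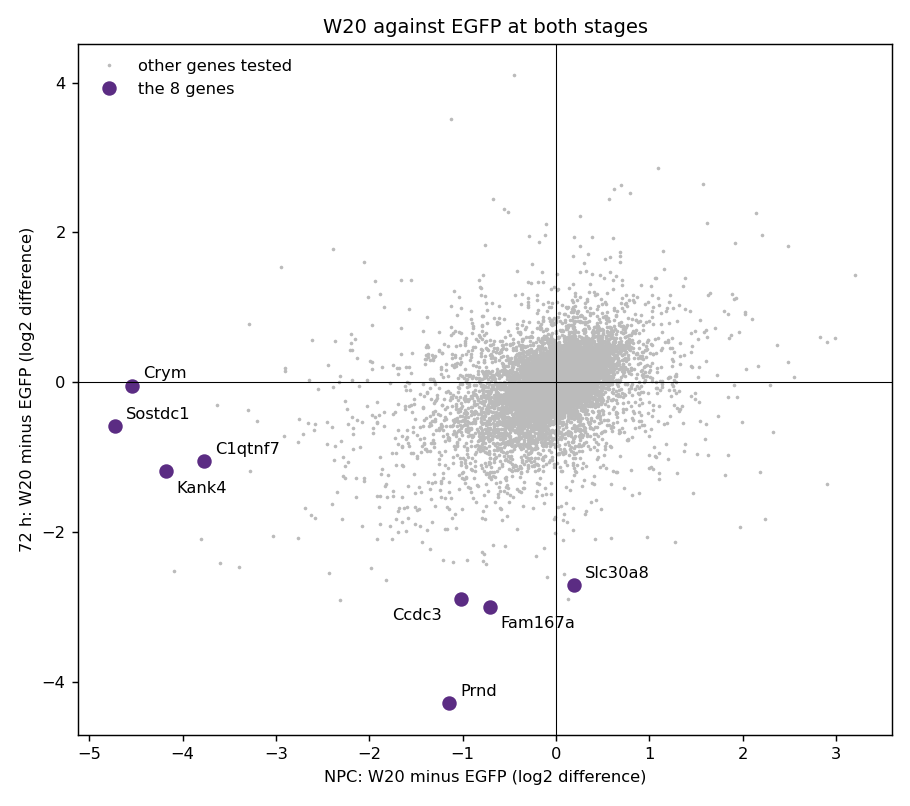
Difference of W20 minus EGFP (log2) in NPC on the horizontal axis and at 72 h on the vertical axis, 1 point per gene tested, with the 8 genes in purple. Sostdc1, Crym, Kank4 and C1qtnf7 lie far left and Prnd, Ccdc3, Fam167a and Slc30a8 far down, and differences of dim genes are fitted values rather than bounds.

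Over the 72 h with EGFP, Crym rose, Ccdc3 fell, and Sostdc1 and Fam167a did not pass, while 36.1% of all genes rose and 33.8% fell. These EGFP arrays also entered the choice of the genes. Prnd was higher at 72 h with EGFP, with no test. With W20, Sostdc1 and Crym were higher and Ccdc3 and Fam167a lower at 72 h than in NPC, all with no test. Of all genes, 37.5% rose and 37.2% fell with W20. The other 4 genes were dim at both stages with W20.

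Genes most like each of the 8 were sought by the root mean square difference of centred profiles over the 8 arrays, among all genes tested. For Kank4 these were C1qtnf7 (0.28), Postn (0.41) and Mgp (0.51), and for C1qtnf7 they were Kank4, Tslp (0.425) and Postn (0.43). Postn encodes periostin and Mgp encodes matrix Gla protein, both secreted into matrix. Mean levels of Postn were -5.20 in W20 NPC and -1.39 in EGFP NPC, and -5.16 in W20 72 h cells and -3.07 in EGFP 72 h cells.

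Ccdc3 had the closest neighbours of any of the 8. They were Cthrc1 (0.21), a secreted collagen triple helix protein, Dlk1 (0.23), a Notch-like transmembrane protein, and Loxl1 (0.40), a lysyl oxidase that crosslinks elastin. Mean levels of Dlk1 were 0.84 in W20 NPC and 1.62 in EGFP NPC, and -2.23 in W20 72 h cells and 0.16 in EGFP 72 h cells. Those of Fam167a were Kcnf1 (0.41), a modulatory potassium channel subunit, Cthrc1 (0.45) and Ccdc3.

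For Sostdc1 the nearest genes were Pcdh10 (0.55), a protocadherin, Crym and Mycn (0.73), a Myc family factor. For Crym they were Sostdc1, Brinp3 (0.68) and Txnip (0.73), which inhibits thioredoxin. Mean levels of Pcdh10 were -3.11 in W20 NPC and 0.10 in EGFP NPC, and -0.16 in W20 72 h cells and 0.36 in EGFP 72 h cells, with the return at 72 h seen for Sostdc1.

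Prnd was nearest to Cnn1 (0.74), a smooth muscle calponin, Cyp1a1 (0.75), a detoxifying oxidase induced by the aryl hydrocarbon receptor, and Myl9 (0.76), a regulatory myosin light chain. Slc30a8 was nearest to 2310034C09Rik (0.58), Limch1 (0.64) and Actc1 (0.64), a cardiac actin. Mean levels of Cnn1 were 0.45 in W20 72 h cells and 2.88 in EGFP 72 h cells, and 0.62 in W20 NPC and 1.37 in EGFP NPC. Likeness is a description over 8 arrays in 4 groups and carries no test. Dim arrays entered it with their measured levels, so part of a likeness can be shared background. Kank4, C1qtnf7, Tslp, 2310034C09Rik and Limch1 were each well above background on 2 of the 8 arrays.

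**Figure D3:**
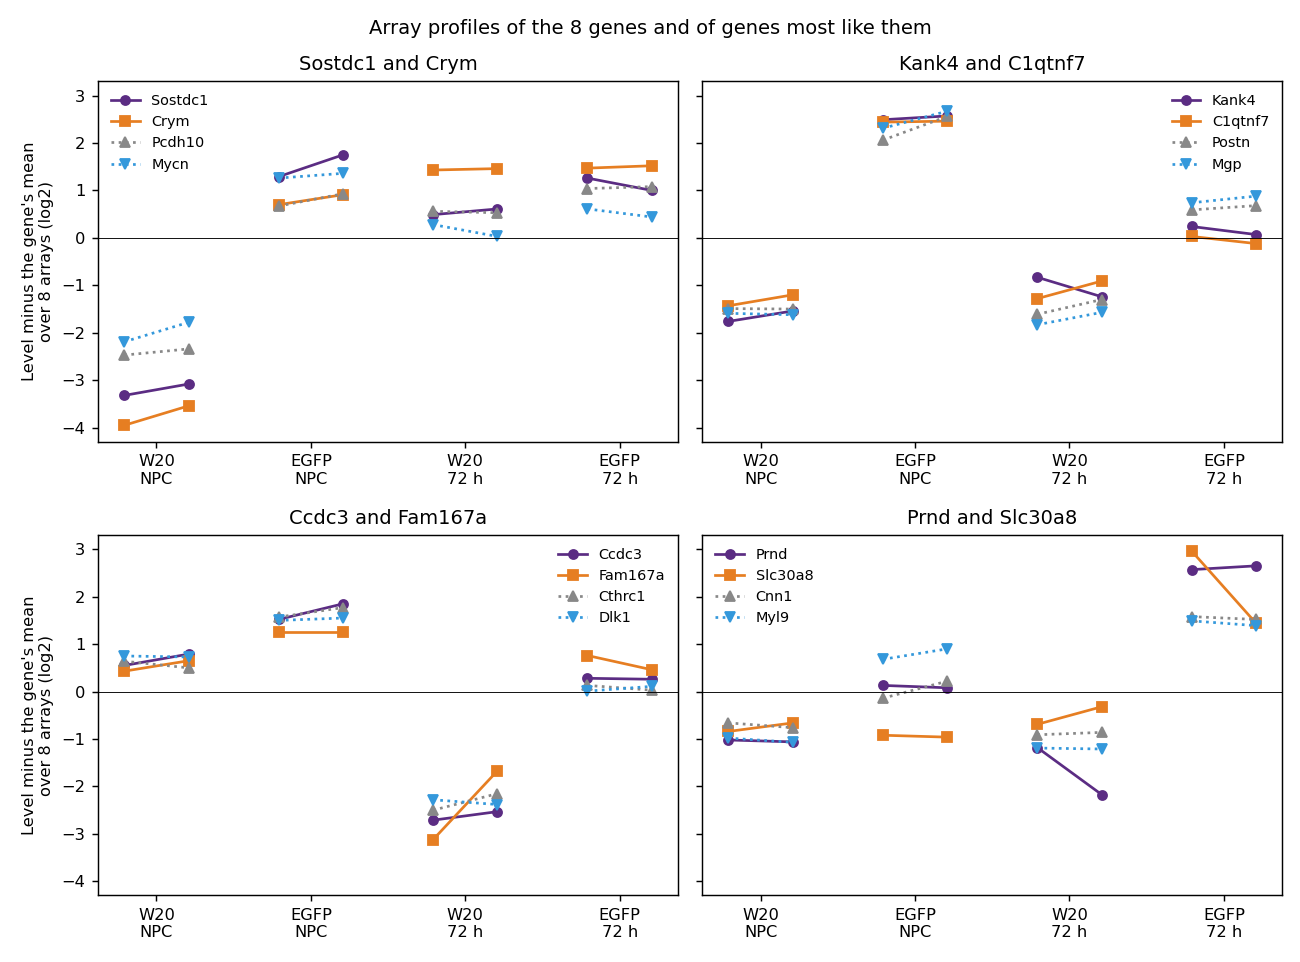
Level of each gene minus its own mean over the 8 arrays (log2), by group, with the 2 arrays of a group joined. Solid lines are the 8 genes in their 4 pairs and dotted lines are genes among those most like them. Kank4 and C1qtnf7 peak in EGFP NPC, and Ccdc3 and Fam167a drop in W20 72 h cells.

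Mesenchymal and fibroblast markers were lower with W20 at both stages. All 12, Postn and Thy1 among them, were lower in W20 NPC than in EGFP NPC (median -1), where 23.6% of all genes were lower, and 10 of 12 were lower in W20 72 h cells (median -0.60), where 24.4% of all genes were. None of the 12 was higher at either stage. With EGFP, 9 of the 12 markers were lower and 1 higher in 72 h cells than in NPC, where 33.8% and 36.1% of all genes were. Their summed linear signal, in units of the array's 75th percentile, was 113 to 116 in W20 NPC and 170 to 193 in EGFP NPC. At 72 h it was 95.8 to 98.8 in W20 cells and 144 to 148 in EGFP cells. On both arrays of a group, 11 of the 12 were above background in W20 NPC, 12 in EGFP NPC, 10 in W20 72 h and 11 in EGFP 72 h cells. Lum was above background on 2 arrays and Postn on 6. The part of these cells in the results for the 8 genes was not tested.

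Markers of other cell types were also summed, and the brightest probes weigh most in such a sum. Astrocyte markers gave 13.6 to 13.9 in W20 NPC and 25 to 26.7 in EGFP NPC, and 15 to 15.5 in W20 72 h and 12.9 to 13.3 in EGFP 72 h cells, with Aqp4 and Slc1a2 dim on all arrays. Choroid plexus and epithelial markers gave 234 to 247 in W20 NPC and 143 to 151 in EGFP NPC, and 64.8 to 65.4 in W20 72 h and 94.8 to 97 in EGFP 72 h cells. Of this list Ttr, Kl and Otx2 were dim on all arrays, and Folr1, Aqp1, Cdh1, Epcam, Krt8 and Krt18 were read on all. Endothelial markers summed to 1.09 to 1.18 in W20 NPC and 1.77 to 1.93 in EGFP NPC, and to 0.856 to 0.939 in W20 72 h and 1.73 to 1.79 in EGFP 72 h cells, with Pecam1, Cdh5, Tie1 and Emcn dim on all arrays. Their part in the results was not tested either.

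**Figure D4:**
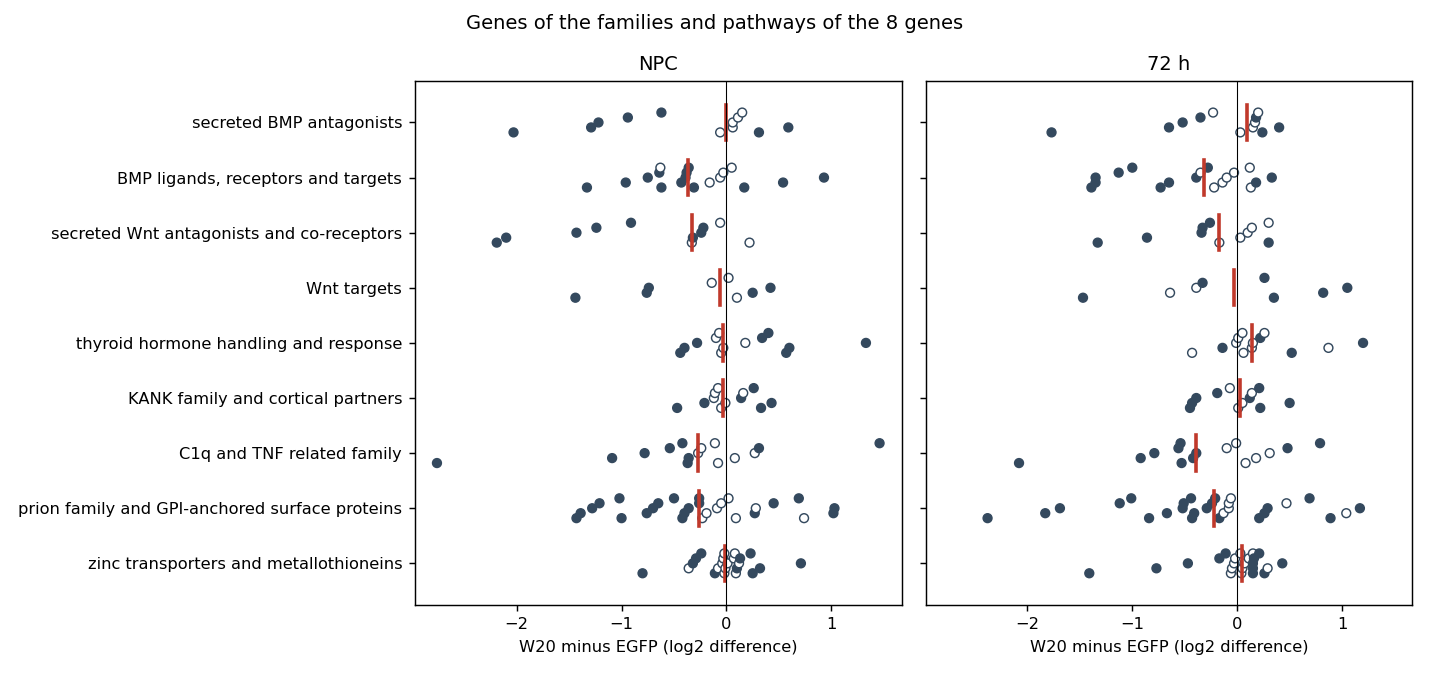
Difference of W20 minus EGFP (log2) for each tested gene of 9 families and pathways, with NPC on the left and 72 h on the right. Filled points passed an adjusted p of 0.05, open points did not, and red bars are list medians. The medians of BMP ligands, receptors and targets are -0.37 in NPC and -0.31 at 72 h.

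Protein-coding genes next to the 8 genes on the chromosome were also read, a look chosen after values were seen. Of 16 flanking genes, 11 were tested, and in W20 NPC 3 were higher and 1 was lower than in EGFP NPC, beside shares of 31.8% and 23.6% over all genes. At 72 h with W20, 4 were higher and 4 lower, where 28.4% and 24.4% of all genes were. Of the 4 lower ones, Aard lies next to Slc30a8, Prnp next to Prnd, Camk1d next to Ccdc3 (-0.35 ± 0.0648, limma, adjusted p = 0.00615) and Cc2d2a next to C1qtnf7 (-0.50 ± 0.0663, adjusted p = 0.00197). The Camk1d difference was -0.08 with normexp background correction and did not pass (limma, adjusted p = 0.36). Of the 3 Camk1d probes, 1 was called lower at 72 h. In NPC Camk1d was higher with W20 (0.31 ± 0.0648, limma, adjusted p = 0.00886). With normexp that difference was 0.13 and did not pass (limma, adjusted p = 0.138). The single flanking gene at least 2-fold lower by its fitted difference was Aard, next to Slc30a8 on chromosome 15. Aard was lower with W20 by -1.60 ± 0.149 at 72 h (limma, adjusted p = 5.50e-04) and by -0.86 ± 0.149 in NPC (adjusted p = 0.00447), and its 72 h mean levels of -7.10 in W20 and -5.50 in EGFP cells were both near or under background.

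The size of the W20 differences depends on how background is handled, since the low side is dim. With normexp correction and an offset of 50 the W20 minus EGFP differences of the 8 genes kept their sign and were smaller: in NPC Crym was at -2.27, Sostdc1 at -1.57, Kank4 at -1.28 and C1qtnf7 at -1.07, and at 72 h Prnd was at -1.52, Fam167a at -0.79, Slc30a8 at -0.48 and Ccdc3 at -0.44. Each of these lies under the bound given above on the log2 scale, so the bounds hold for the processed signal alone.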

How the data were processed

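Total RNA of 8 samples was hybridised to whole mouse genome arrays in 1 colour. Per the file headers, the deposited scanner files hold spot intensity values made with Agilent Feature Extraction 10.7.3.1; the processed signal, already corrected for background by the authors' scan, was used. The deposited series table holds log2 values of the authors; its 72 h replicate 1 columns equalled means of NPC columns, so it served as an alternative in NPC only.

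Outlier spots (95 to 137 per array) were left out, log2 signals had each array's 75th percentile subtracted (828.8 to 939.7 units), and repeated spots were averaged by probe. RefSeq symbols were found for 27584 of 41174 probes by accession (GRCm38.p6). The brightest probe per gene was kept if well above background on both arrays of a group. Group means were fitted with limma 3.58.1 in R 4.3.3 (4 residual and 1.76 prior degrees of freedom), with Benjamini-Hochberg adjustment over 13617 genes, two-sided, threshold 0.05, in 4 comparisons; ± is the SE with 2 arrays per group, and this small number of arrays limits precision. The fit was tested on simulated data.

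The 8 genes and all lists were chosen with earlier results of these data known. Named were the 8 genes, their 3 most alike genes each, and per list and W20 comparison up to 2 of the largest rises and falls; of 53 such list genes, the text names the 40 whose call held under every alternative that gave a value, chosen after those were seen, plus 4 flanking genes. Where a list gene named in the text was called in the other direction at the other stage, that call is given without this condition. Normexp used the spot median, as no mean signal column was present.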

Additional observations from a re-analysis of the deposited data

Results flagged for a closer look

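The fitted difference of Sostdc1 over the 72 h had opposite signs in the 2 kinds of cells. The difference of 72 h minus NPC was 3.75 with W20, where both 72 h arrays lay above both NPC arrays. With EGFP it was -0.39, where both 72 h arrays lay under both NPC arrays, the nearest at -2.94 and -2.90. The difference between the 2 changes was not tested. The W20 NPC arrays were dim, so 3.75 is a fitted value whose bound is a 3.44-fold rise, and the EGFP value did not pass (limma, adjusted p = 0.0912).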

How the results depend on the processing

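The numbers of genes called were 7551 for W20 against EGFP in NPC, 7182 at 72 h, 9518 for 72 h against NPC with EGFP and 10163 with W20. Fitting each probe on its own tested 25725 probes and called 11780, 10910, 16305 and 17938 of them in the same order of comparisons, since more features were tested. No other alternative moved these counts by over 1.5 times. Leaving out 1 array at a time gave 5669 to 7565, 5548 to 6824, 8427 to 9563 and 9208 to 10005. With the replicate block the counts were 7542, 7131, 9532 and 10179 and no call on the 8 genes changed; same-numbered arrays had correlations of -0.09 to 0.15 in their deviations, so the numbers do not pair the arrays. Of the stage calls given with a test for the 8 genes, none ended; the difference of Fam167a with EGFP passed under normexp (adjusted p = 0.00137) and with the 4 arrays compared alone (adjusted p = 0.00998), that of Sostdc1 under normexp and without 1 array, and no direction turned. None of the 8 genes was above background on all 8 arrays, so that filter gave no value for them. Among counts of list genes across the settings, 592 stayed within 1.5 times the value given and 74 did not. The slide was not fitted as a block, because each W20 comparison lies within 1 slide and stage cannot be told apart from slide. Setting a dim probe's own signal in place of the lowest level above background raised the bound on the log2 scale, for example to 4.72 in place of 2.75 for Sostdc1 in NPC. Signal over background limits the low side of all 8 genes.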
